A study of Nicotiana tabacum with 6 samples.

Results

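Nitrate reductase (NIA), cytosolic glutamine synthetase (GLN1-1 and GLN1-2), NADH-dependent glutamate synthase (GLT1) and ferredoxin-dependent glutamate synthase (GLU1) are the enzymes that turn nitrate and ammonium into glutamine and glutamate. Genes were taken by the first name in the symbol deposited with each gene, which gave 11 of the 69500 genes in the count table: 3 NIA, 2 GLN1-1, 1 GLN1-2, 3 GLT1 and 2 GLU1 genes. Of these, 9 had enough counts to be tested, among 38482 tested genes. The names searched for nitrite reductase (NIR and NII) matched 0 genes, as did GLN2, so those steps are not analysed here under these names. Control seedlings of cultivated tobacco (Nicotiana tabacum) were fed 7.5 mM ammonium nitrate in a nutrient solution, and low nitrogen seedlings 0.75 mM in its place. Treatment lasted 15 days, with fresh solution every 7 days, and each group had 3 libraries of polyadenylated RNA. The labels name the material as seedling, with no organ, cultivar or plant age, and they do not say whether libraries came from separate plants, so each p-value reflects the spread among the 6 libraries alone, and that spread may be partly technical.

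Nitrate taken up by a root is reduced to nitrite by nitrate reductase in the cytosol, and nitrite is reduced to ammonium in the plastid. Glutamine synthetase adds ammonium to glutamate to make glutamine. Glutamate synthase (GOGAT) then moves the amide nitrogen of glutamine to 2-oxoglutarate, which gives back glutamate for the cycle and leaves a net gain of it. The form that draws electrons from ferredoxin is best known from leaf chloroplasts, where it works with the plastid glutamine synthetase to recover photorespiratory ammonium. The form that draws on NADH, with cytosolic glutamine synthetase, is best known from roots and vascular tissue. Transcription of nitrate reductase genes is induced by nitrate in many plants.

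Total counts per library ran from 13027374 to 15620067. The libraries differed in green-tissue transcripts within each group. Levels are CPM, counts scaled to a common library total with TMM factors. Summed over 63 light-harvesting genes, control replicates 1 to 3 reached 57.2, 33.6 and 875 CPM, while low nitrogen replicates 1 to 3 reached 389.9, 180.03 and 63.6 CPM, and 2 of the 63 genes were at 0 in all 6 libraries. The 15 genes of the Rubisco small subunit, which abounds in leaves, summed to at most 15.9 CPM in any library, with 5 of them at 0 throughout. The 24 root marker genes, 1 of them at 0 throughout, summed to 827, 1108 and 1279 CPM in control replicates 1 to 3. For low nitrogen replicates 1 to 3 the sums were 997, 1144 and 981 CPM. Most of each sum came from a single gene, QPT Nitab4.5_0000742g0010. It ranged from 650 CPM (control replicate 1) to 1021 CPM (control replicate 3), and from 742 to 882 CPM among the low nitrogen libraries. The root sums therefore mainly follow QPT and say little about the other root markers. In bulk RNA, fewer cells of a type and less RNA per cell cannot be told apart.

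The direction of the difference in means varied with the enzyme. The main GLN1-1 gene and the main NIA and GLT1 genes had lower mean levels in low nitrogen, and both GLU1 genes had higher mean levels. No change passed the threshold with edgeR (0 of 9 tested genes at an adjusted p under 0.05, against 0% of all 38482 tested genes). At an unadjusted p under 0.05, edgeR placed 1 of the 9 lower in low nitrogen, against 5.66% of all tested genes, or 11.8% in either direction. DESeq2 placed the same gene, a GLN1-1 gene, lower at an adjusted p under 0.05, against 0.83% of the genes it tested, or 1.52% in either direction, and limma-voom placed 0 of the 9 past the threshold, against 0% of all genes. Of the 9 genes, 6 had a fold change below 0 and 3 above it, with a median log2 fold change of -0.65, beside a median of 0.0029 over all tested genes, of which 50.3% were above 0. In 0 of the 9 genes were the groups without overlap, against 18.2% of all tested genes (8.49% lower and 9.72% higher in low nitrogen).

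**Figure D1:**
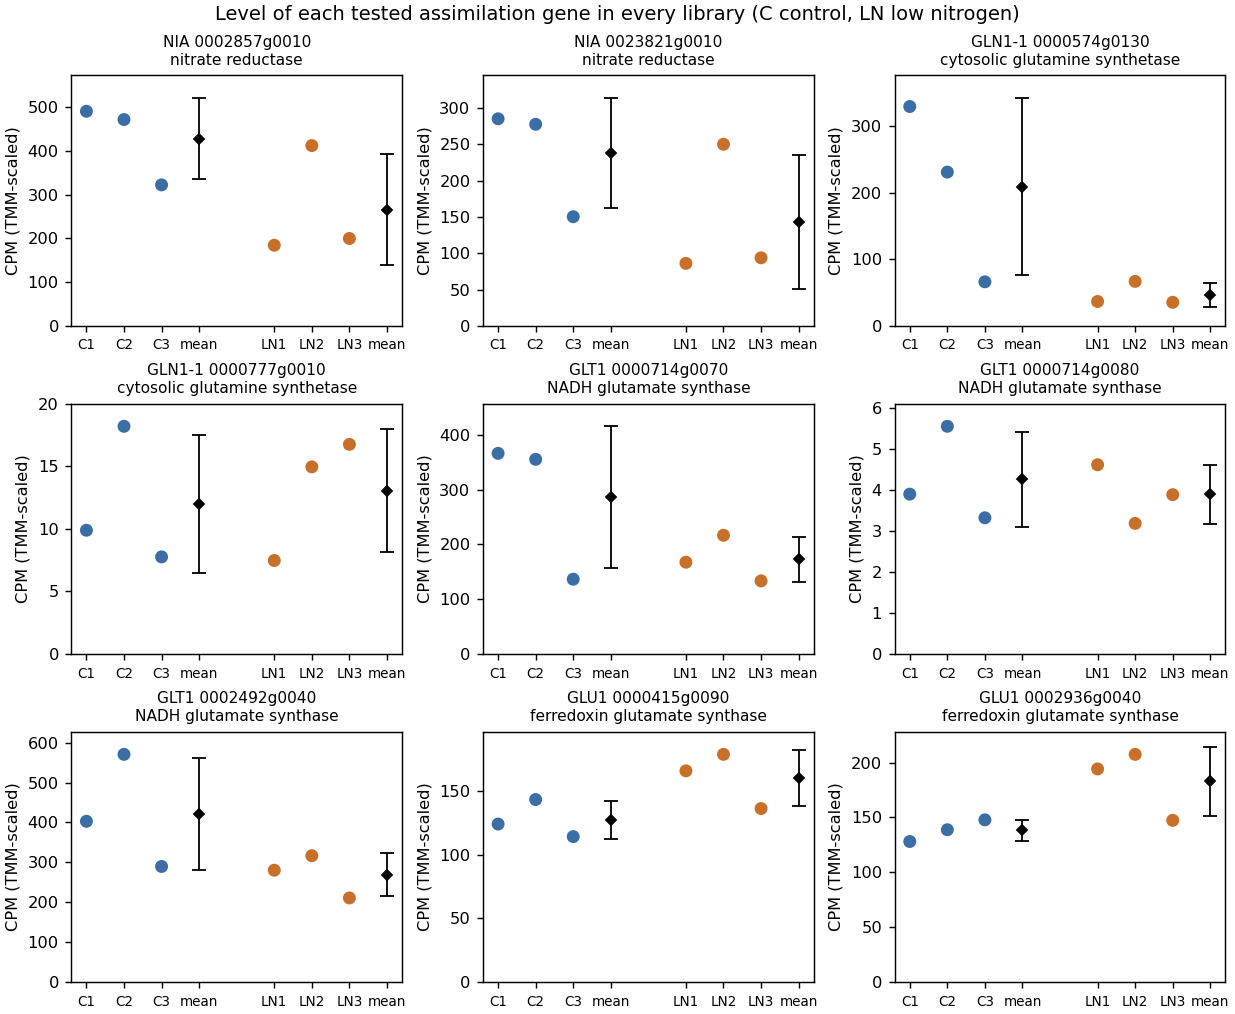
CPM after TMM scaling (y axis, from 0) of the 9 tested genes in control libraries 1 to 3 (blue) and low nitrogen libraries 1 to 3 (orange), with the group mean ± SD beside them (black diamonds). The main GLN1-1 gene lay between 35.4 and 66.8 CPM in low nitrogen and between 66.1 and 329.6 CPM in the controls. In all 9 panels the groups overlap.

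Nitrate reductase, the first and regulated step, had 2 genes named NIA with more than a few counts. NIA Nitab4.5_0002857g0010 stood at 490, 471 and 322 CPM in control replicates 1 to 3 and at 184, 412 and 199.6 CPM in low nitrogen replicates 1 to 3. Low nitrogen replicate 2 lay among the controls, and the other low nitrogen libraries lay below all of them. The means were 428 ± 92.1 and 265 ± 127 CPM (SD, n = 3), and the log2 fold change of -0.69 (SE 0.35) did not pass the threshold (edgeR adjusted p = 0.471, DESeq2 adjusted p = 0.385).

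NIA Nitab4.5_0023821g0010 had the same order of libraries, at 285, 278 and 150.3 CPM in the control libraries and 86.0, 250.1 and 93.7 CPM in low nitrogen. Its low nitrogen replicate 2 exceeded control replicate 3, so the groups overlapped. The log2 fold change was -0.73 (SE 0.46, edgeR adjusted p = 0.542). For both genes, 1 library decided the DESeq2 call. Without low nitrogen replicate 2, DESeq2 called 375 genes in all. NIA Nitab4.5_0002857g0010 then had a log2 fold change of -1.16 (DESeq2 adjusted p = 0.00269) and NIA Nitab4.5_0023821g0010 one of -1.41 (DESeq2 adjusted p = 0.00587). Their edgeR adjusted p in the same comparison was 0.512 and 0.513. The remaining NIA gene, Nitab4.5_0003302g0080, had 2 counts in control replicate 1, 1 count in low nitrogen replicate 2 and 0 elsewhere, and was not tested.

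The ratio of the 2 NIA genes stayed within a narrow range, but not at a single level. NIA Nitab4.5_0002857g0010 took 63.2%, 62.9% and 68.2% of the counts of the pair in the controls and 68.2%, 62.2% and 68.1% in low nitrogen. The widest of the exact 95% binomial intervals of these shares ran from 66.7% to 69.6%, and all such intervals cover counting error only. The mean log2 ratio of the 2 genes was 0.88 ± 0.19 in the controls and 0.97 ± 0.21 in low nitrogen (SD, n = 3, two-sided exact permutation p = 1), a difference of 0.086. The 3 libraries with the lowest summed nitrate reductase level, control replicate 3 among them, had the 3 highest shares. Their exact 95% intervals, none reaching below 66.6%, did not overlap those of the other libraries, none reaching above 64.2%.

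Cytosolic glutamine synthetase, which makes glutamine in roots and vascular tissue, is also the enzyme of genes with the first name GLN1, described with the related genes. Among the 9 genes, it held the largest difference. GLN1-1 Nitab4.5_0000574g0130 stood at 329.6, 231 and 66.1 CPM in the control libraries and at 36.6, 66.8 and 35.4 CPM in low nitrogen. The first 2 control libraries lay far above the rest, and control replicate 3 lay just below low nitrogen replicate 2, so the groups overlapped by that pair of libraries. The means were 209 ± 133 and 46.3 ± 17.8 CPM (SD, n = 3), and the log2 fold change was -2.17 (SE 0.56).

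The edgeR adjusted p of this gene was 0.347 (unadjusted 0.00581), the DESeq2 adjusted p 0.00246 and the limma-voom adjusted p 0.382. With DESeq2 the call was lost without control replicate 1 (adjusted p = 0.167), without low nitrogen replicate 1 (DESeq2 adjusted p = 0.0733) and without low nitrogen replicate 3 (DESeq2 adjusted p = 0.168). Without control replicate 3, when DESeq2 called 1633 genes in all, the DESeq2 adjusted p of this gene was 1.32e-11. Control replicate 3, with the lowest GLN1-1 level among the controls, had the highest light-harvesting sum of all libraries. With the light-harvesting level as a covariate the log2 fold change was -1.81 (edgeR adjusted p = 0.193). Leaving out control replicate 3 together with low nitrogen replicate 1, which had the highest light-harvesting sums, made it -2.47 (edgeR adjusted p = 0.143).

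A second GLN1-1 gene, Nitab4.5_0000777g0010, stood at 9.89, 18.2 and 7.76 CPM in the control libraries and 7.47, 15.0 and 16.8 CPM in low nitrogen. Its groups lay over the same range, with a log2 fold change of 0.13 (SE 0.40, edgeR adjusted p = 0.912), a sign that turned when control replicate 3 or low nitrogen replicate 3 was left out. GLN1-2 Nitab4.5_0009686g0030 had 1, 7 and 3 counts in the controls and 4, 16 and 14 in low nitrogen, too few to pass the filter. Without the filter its log2 fold change was 1.41 (SE 0.80, edgeR adjusted p = 0.575).

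The 2 GLN1-1 genes did not keep a fixed ratio. GLN1-1 Nitab4.5_0000574g0130 took 97.1%, 92.7% and 89.5% of the counts of the pair in the controls and 83.0%, 81.7% and 67.9% in low nitrogen. The lowest control share had an exact 95% interval of 87.5% to 91.3%, and the highest low nitrogen share one of 79.9% to 85.9%. The log2 ratio of the pair was 4.99, 3.63 and 3.01 in the controls and 2.22, 2.12 and 1.06 in low nitrogen, with no overlap. The mean was 3.88 ± 1.01 in the controls and 1.80 ± 0.65 in low nitrogen (SD, n = 3), a difference of -2.08 (two-sided exact permutation p = 0.1, the smallest that 3 against 3 libraries can give, adjusted p = 0.4 over the 4 steps).

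**Figure D2:**
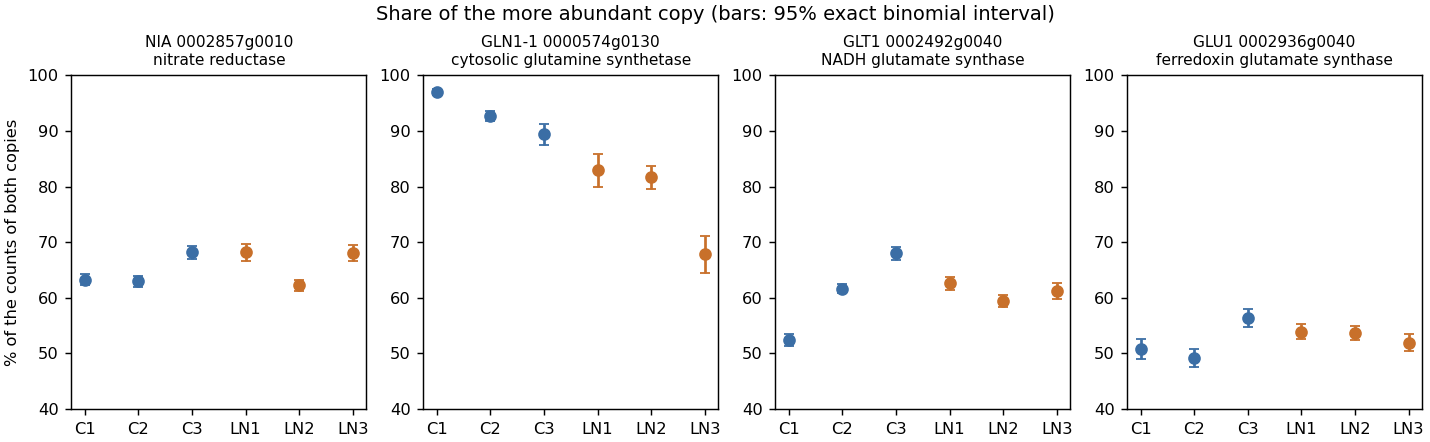
Share (%, y axis from 40 to 100) of the counts of the 2 most abundant genes of a step that the more abundant gene took, in control libraries C1 to C3 (blue) and low nitrogen libraries LN1 to LN3 (orange), with exact 95% binomial intervals that cover counting error only. The GLN1-1 share lay at 89.5% to 97.1% in the controls and 67.9% to 83.0% in low nitrogen, and the shares of the other steps overlapped between groups.

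NADH-dependent glutamate synthase, which returns the amide nitrogen of glutamine to glutamate in non-green tissue, had 2 abundant genes. GLT1 Nitab4.5_0002492g0040 stood at 403, 571 and 289.7 CPM in the control libraries and 280.3, 317 and 211 CPM in low nitrogen. Control replicate 3 lay within the low nitrogen range, below its replicate 2, and the other controls lay above all low nitrogen libraries. The means were 421 ± 141 and 269 ± 53.9 CPM (SD, n = 3), and the log2 fold change was -0.65 (SE 0.29, edgeR adjusted p = 0.433, DESeq2 adjusted p = 0.312).

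GLT1 Nitab4.5_0000714g0070 stood at 366, 355 and 136 CPM in the control libraries and 167, 217 and 133 CPM in low nitrogen. Control replicate 3 again lay within the low nitrogen range. The log2 fold change was -0.73 (SE 0.38, edgeR adjusted p = 0.483, DESeq2 adjusted p = 0.419). These values moved with single control libraries. Without control replicate 2, GLT1 Nitab4.5_0002492g0040 had a log2 fold change of -0.36 with edgeR (adjusted p = 0.623) and a DESeq2 adjusted p of 0.727. Without control replicate 3, when DESeq2 called 1633 genes in all, it placed both GLT1 genes lower, GLT1 Nitab4.5_0002492g0040 at a log2 fold change of -0.87 (DESeq2 adjusted p = 0.0304) and GLT1 Nitab4.5_0000714g0070 at -1.08 (DESeq2 adjusted p = 0.00146), while edgeR gave adjusted p = 0.209 and 0.133.

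The third GLT1 gene, Nitab4.5_0000714g0080, bears the identifier next to that of Nitab4.5_0000714g0070 and ranged from 3.18 to 5.54 CPM over the 6 libraries. Its log2 fold change was -0.13 (SE 0.28, edgeR adjusted p = 0.870). The share of GLT1 Nitab4.5_0002492g0040 in the counts of the abundant pair was 52.4%, 61.6% and 68.0% in the controls and 62.6%, 59.4% and 61.2% in low nitrogen. The controls spread widely around the low nitrogen values, and the mean log2 ratio of the pair differed by 0.014 (two-sided exact permutation p = 1).

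Ferredoxin-dependent glutamate synthase, the form best known from leaf chloroplasts, was the step with higher mean levels in low nitrogen. GLU1 Nitab4.5_0002936g0040 stood at 128, 139 and 148 CPM in the control libraries and 194, 208 and 147 CPM in low nitrogen. Low nitrogen replicate 3 lay just below control replicate 3, and the other low nitrogen libraries lay above all controls. The means were 138 ± 9.89 and 183 ± 31.6 CPM (SD, n = 3), and the log2 fold change was 0.40 (SE 0.17, edgeR adjusted p = 0.426, DESeq2 adjusted p = 0.372). Without low nitrogen replicate 3, when DESeq2 called 1113 genes in all, it placed this gene higher (log2 fold change 0.52, DESeq2 adjusted p = 0.0296), while edgeR gave an adjusted p of 0.273. That library had the lowest light-harvesting sum of its group. Among the controls, replicate 2 had the lowest light-harvesting sum and the highest level of both GLU1 genes summed (282 CPM). For GLU1 Nitab4.5_0002936g0040 alone, the highest control was replicate 3 (148 CPM), which had the highest light-harvesting sum. The cause of these differences was not tested.

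GLU1 Nitab4.5_0000415g0090 stood at 124, 144 and 114 CPM in the control libraries and 166, 179 and 137 CPM in low nitrogen. Low nitrogen replicate 3 lay below control replicate 2, so these groups overlapped as well. The log2 fold change was 0.33 (SE 0.17, edgeR adjusted p = 0.467, DESeq2 adjusted p = 0.507). With the light-harvesting level as a covariate, the log2 fold changes were 0.38 for GLU1 Nitab4.5_0002936g0040 and 0.34 for GLU1 Nitab4.5_0000415g0090. The 2 genes had nearly equal counts, with a share of the first of 49.1% to 56.4% over the 6 libraries.

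**Figure D3:**
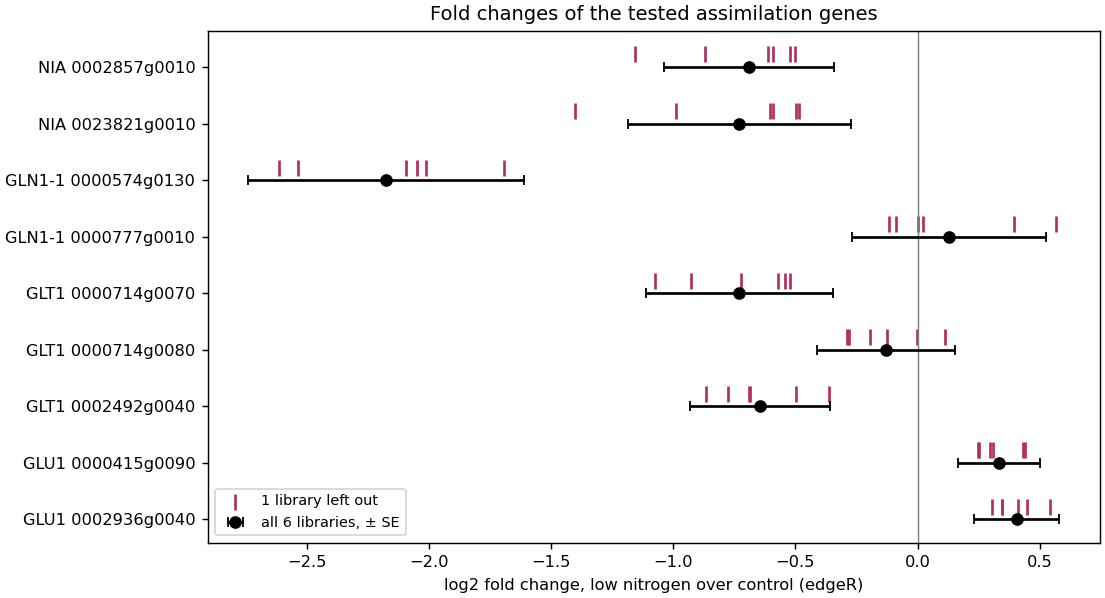
Log2 fold change of low nitrogen over control (x axis, edgeR) of the 9 tested genes, with the estimate from all 6 libraries ± SE (black) and the estimates with 1 library left out (red ticks). The main GLN1-1 gene stayed between -2.61 and -1.69, and both GLU1 genes stayed above 0. The less abundant GLN1-1 gene and GLT1 Nitab4.5_0000714g0080 had ticks on both sides of 0.

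Summed over the genes of a name, levels differed in the same direction as those of its most abundant gene. Nitrate reductase summed to 666 ± 168 CPM in the control libraries and 408 ± 220 CPM in low nitrogen. The GLN1-1 and GLN1-2 genes summed to 221 ± 135 and 60.1 ± 20.1 CPM, a log2 ratio of -1.88. With the 5 genes named GLN1 added, cytosolic glutamine synthetase summed to 927 ± 314 and 679 ± 218 CPM, a log2 ratio of -0.45. NADH glutamate synthase summed to 711 ± 257 and 446 ± 94.5 CPM. Ferredoxin glutamate synthase summed to 266 ± 15.3 and 344 ± 53.4 CPM (all SD, n = 3). When counts were summed over genes of the same first name and fitted with all 16100 tested names, edgeR placed 0 names past the threshold, with log2 fold changes of -0.72 for NIA (adjusted p = 0.452), -1.91 for GLN1-1 (adjusted p = 0.337), -0.69 for GLT1 (adjusted p = 0.394) and 0.35 for GLU1 (adjusted p = 0.384).

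The most abundant NIA, GLN1-1, GLT1 and GLU1 genes were also compared with each other inside each library, as log2 ratios, a measure chosen after the counts had been seen. GLT1 over GLU1, the NADH against the ferredoxin form of the same enzyme, was 1.65, 2.04 and 0.97 in the controls and 0.53, 0.61 and 0.51 in low nitrogen. The groups did not overlap, and the mean was 1.55 ± 0.54 against 0.55 ± 0.05, with a lower mean in low nitrogen. GLN1-1 over GLU1 was 1.36, 0.73 and -1.15 in the controls and -2.39, -1.63 and -2.04 in low nitrogen, a difference of -2.33 with no overlap.

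NIA over GLU1 was 1.93, 1.76 and 1.12 in the control libraries and -0.076, 0.99 and 0.44 in low nitrogen, a difference of -1.16. NIA over GLN1-1 was 0.57, 1.03 and 2.27 in the controls and 2.32, 2.61 and 2.48 in low nitrogen, a difference of 1.18. GLN1-1 over GLT1 was -0.29, -1.30 and -2.12 in the controls and -2.92, -2.24 and -2.56 in low nitrogen, a difference of -1.33. Each of these 5 ratios separated the groups in all 6 libraries (two-sided exact permutation p = 0.1 each, the smallest possible, adjusted p = 0.12 over 6 ratios). They share the same NIA, GLN1-1, GLT1 and GLU1 genes and are not independent of each other. Each of those genes alone had overlapping groups, while 18.2% of all tested genes had no overlap. The share of other gene pairs that separate the groups was not computed.

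NIA over GLT1 overlapped between groups, at 0.28, -0.28 and 0.15 in the controls and -0.60, 0.38 and -0.078 in low nitrogen. The difference was -0.15 (two-sided exact permutation p = 0.7, adjusted p = 0.7). Between-gene ratios of CPM carry gene length, so only their difference between groups is read here.

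The ratios with GLN1-1 belong to that gene and not to cytosolic glutamine synthetase as a whole. With GLN1 Nitab4.5_0009806g0020, which had the highest CPM of that enzyme's genes, in place of GLN1-1, the difference of NIA over it was -0.73, opposite in sign to that of NIA over GLN1-1 (no overlap, two-sided exact permutation p = 0.1, adjusted p = 0.3 over 3 ratios). The difference of GLN1 over GLT1 was 0.58, also opposite in sign to that with GLN1-1 (overlapping groups, two-sided exact permutation p = 0.3, adjusted p = 0.45). The difference of GLN1 over GLU1 was -0.42 (overlapping groups, two-sided exact permutation p = 0.5, adjusted p = 0.5).

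**Figure D4:**
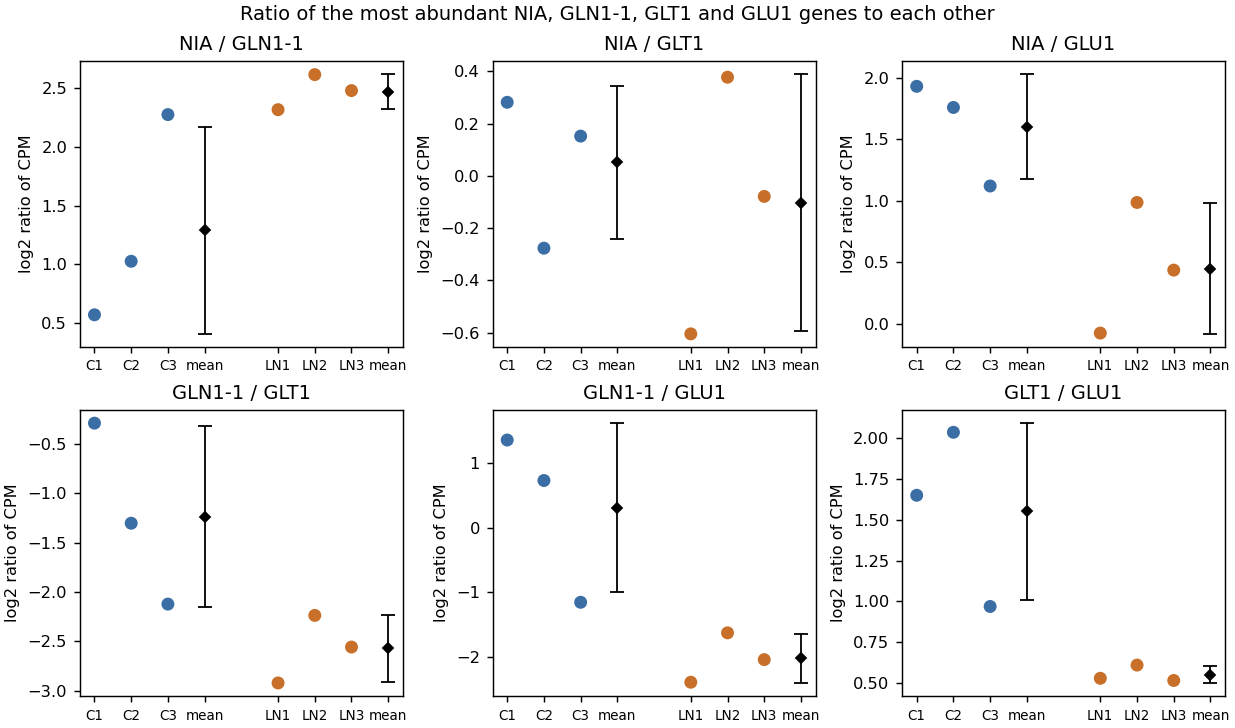
Log2 ratio of CPM (y axis) of the most abundant NIA, GLN1-1, GLT1 or GLU1 gene over that of another name, in each control (blue) and low nitrogen (orange) library, with the group mean ± SD beside them (black diamonds). In 5 of the 6 panels the groups do not overlap, and in NIA over GLT1 they do. The panels share genes, so they are not independent of each other.

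Other genes that make or feed these enzymes were taken as 96 further genes in 11 lists, of which 81 were tested. Their median log2 fold change was -0.074, with 35 above 0 and 46 below it, and edgeR placed 0 past the threshold. At an unadjusted p under 0.05, edgeR placed 7 higher and 9 lower, against 6.1% and 5.66% of all tested genes. DESeq2 placed 2 higher and 1 lower at an adjusted p under 0.05, against 0.692% and 0.83%.

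Among genes annotated as the same enzymes under other first names, DESeq2 placed GLN1 Nitab4.5_0007727g0010, a further cytosolic glutamine synthetase, lower. It stood at 277, 255 and 83.5 CPM in the control libraries and 60.2, 108 and 51.2 CPM in low nitrogen, the same order of controls as GLN1-1 Nitab4.5_0000574g0130. Its log2 fold change was -1.49 (SE 0.48, edgeR adjusted p = 0.380, DESeq2 adjusted p = 0.0487), and the DESeq2 call was lost without control replicate 1 (adjusted p = 0.657), control replicate 2 (adjusted p = 0.301), low nitrogen replicate 1 (adjusted p = 0.425) or low nitrogen replicate 3 (adjusted p = 0.124). Of the other GLN1 genes, Nitab4.5_0009806g0020 stood at 337, 296 and 256 CPM in the control libraries and 193, 376 and 329 CPM in low nitrogen, with overlapping groups and a log2 fold change of 0.014. GLN1 Nitab4.5_0001650g0160 had means of 198 ± 39.9 and 237 ± 78.9 CPM (SD, n = 3) and a log2 fold change of 0.26, GLN1 Nitab4.5_0010543g0010 a log2 fold change of 0.56, and GLN1 Nitab4.5_0010541g0020 was at 0 in all libraries. Genes named GS2, the usual name of plastid glutamine synthetase, had log2 fold changes of -0.32 and -0.29, and none of these 5 tested genes passed with edgeR or DESeq2. NR1, a symbol that does not settle whether the product is nitrate reductase, had a tested gene, Nitab4.5_0001823g0020, at a mean of 5.99 CPM with a log2 fold change of -0.11 (edgeR adjusted p = 0.941). A further NR1 gene, Nitab4.5_0000706g0160, averaged 0.743 CPM and was not tested.

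Root-type ferredoxin (FD3) and its reductase (RFNR) hand electrons to nitrite reductase and glutamate synthase in non-green plastids. Of the 10 tested genes of this list, 9 were below 0, against 49.7% of all tested genes, with a median log2 fold change of -0.61. edgeR placed 4 lower at an unadjusted p under 0.05, against 5.66% of all tested genes, and 0 past the adjusted threshold. FD3 Nitab4.5_0001216g0080 stood at 10.2, 10.7 and 7.62 CPM in the control libraries and 3.14, 5.55 and 5.47 CPM in low nitrogen, with no overlap (log2 fold change -1.01, SE 0.27, edgeR adjusted p = 0.353, DESeq2 adjusted p = 0.0860). RFNR2 Nitab4.5_0000574g0120, whose identifier precedes that of the main GLN1-1 gene, had a log2 fold change of -0.46 (edgeR adjusted p = 0.518).

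Asparagine synthetase moves the amide nitrogen of glutamine to aspartate. Of its 9 tested genes, 5 were above 0 and 4 below, with a median log2 fold change of 0.16. DESeq2 placed 2 higher at an adjusted p under 0.05, against 0.692% of the genes it tested. At an unadjusted p under 0.05, edgeR placed 4 higher and 0 lower, against 6.1% and 5.66% of all tested genes. Groups did not overlap in 4 genes higher and 1 lower in low nitrogen, against 9.72% and 8.49% of all tested genes. The genes with the highest CPM of the list, ASN2 Nitab4.5_0000630g0010 and ASN2 Nitab4.5_0013186g0010, had log2 fold changes of -0.074 (edgeR adjusted p = 0.941) and 0.16 (edgeR adjusted p = 0.855). AS1 Nitab4.5_0000839g0060 stood at 27.1, 6.74 and 28.1 CPM in the control libraries and 144, 63.4 and 165 CPM in low nitrogen. All low nitrogen libraries lay above all controls (log2 fold change 2.59, SE 0.58, edgeR adjusted p = 0.332, DESeq2 adjusted p = 0.000195), and DESeq2 placed it higher with any 1 library left out. AS2 Nitab4.5_0008156g0030 had a log2 fold change of 2.15 (DESeq2 adjusted p = 0.00623), a call lost without control replicate 3 (adjusted p = 0.0933), low nitrogen replicate 1 (adjusted p = 0.261) or low nitrogen replicate 3 (adjusted p = 0.127).

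In the remaining lists the gene with the smallest edgeR p is named, which need not share the direction of its list. Glutamate dehydrogenase, which can release ammonium from glutamate, gave GDH2 Nitab4.5_0000375g0370 at a log2 fold change of 0.62 (edgeR adjusted p = 0.388). Of that list, 5 tested genes were above 0 and 2 below. The gene with its highest CPM, GDHB Nitab4.5_0002769g0080, stood at -0.23 (edgeR adjusted p = 0.555). Aspartate aminotransferase gave ASP2 Nitab4.5_0000097g0090 at -1.39 (edgeR adjusted p = 0.378), and alanine aminotransferase gave ALAAT2 Nitab4.5_0008337g0070 at -0.87 (edgeR adjusted p = 0.390). The molybdenum cofactor list gave ABA3 Nitab4.5_0001080g0010 at 0.71 (edgeR adjusted p = 0.373), although ABA3 sulfurates the cofactor of other enzymes and is not needed for nitrate reductase. The plastid 2-oxoglutarate carrier DIT1 Nitab4.5_0000863g0080 stood at -0.59 (edgeR adjusted p = 0.363) and IDH5 Nitab4.5_0002463g0020, a subunit of the isocitrate dehydrogenase that makes 2-oxoglutarate, at 0.47 (edgeR adjusted p = 0.433). Of the 10 tested genes in the list of IDH5, 3 were above 0 and 7 below. SIRB Nitab4.5_0005432g0010 of sirohaem synthesis, the cofactor of nitrite reductase, stood at 0.18 (edgeR adjusted p = 0.628), and GLB1 Nitab4.5_0000222g0190, the PII sensor, at -0.25 (edgeR adjusted p = 0.716).

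**Figure D5:**
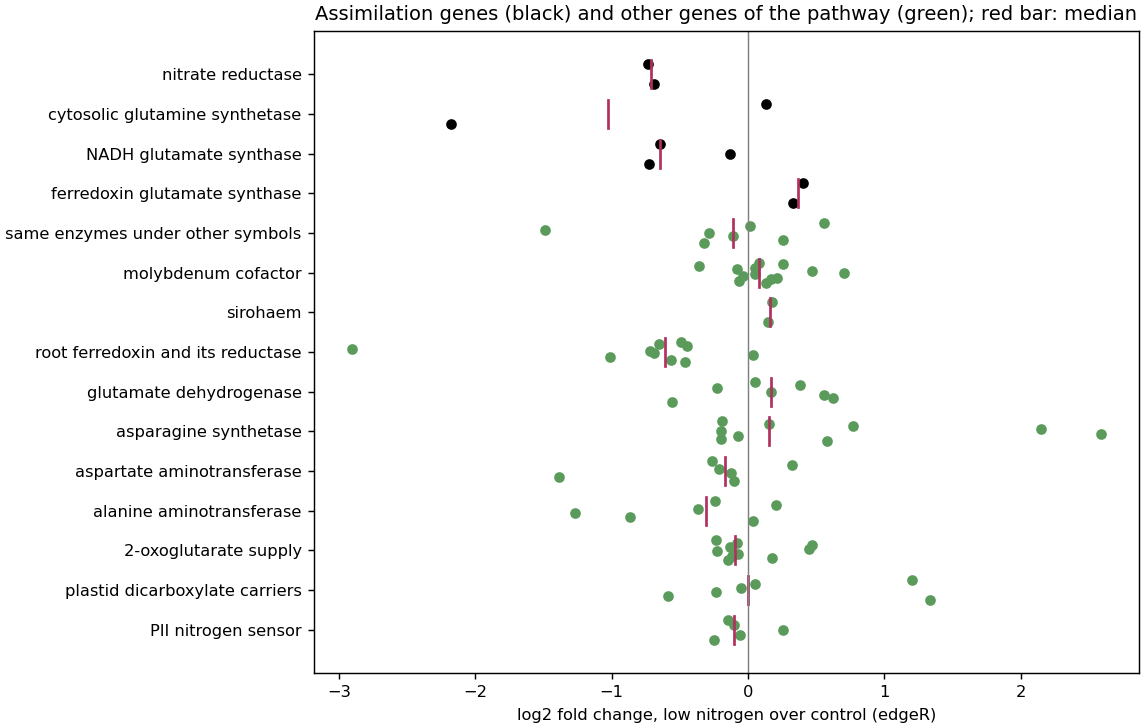
Log2 fold change of low nitrogen over control (x axis, edgeR) of each tested gene, grouped by enzyme step (black) and by list of related genes (green), with the median of each group as a red bar. The GLU1 genes lie above 0, the NIA and GLT1 genes below it, and 9 of 10 root ferredoxin and reductase genes lie below 0.

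The genes whose levels followed the abundant gene of a step most closely were found by Pearson's correlation of log2 CPM over the 6 libraries, among 26570 candidates with a mean of at least 5 CPM. All points share the same 6 libraries, so these values only describe them. For NIA Nitab4.5_0002857g0010 they were GK3 (r = 0.995), NIA Nitab4.5_0023821g0010 (r = 0.993) and TIP2-3 (r = 0.990). For GLN1-1 Nitab4.5_0000574g0130 they were CYP71B10 (r = 0.996), GLDH (r = 0.993) and PHT3 (r = 0.991). Genes close to GLT1 Nitab4.5_0002492g0040 included EBF1 (r = 0.993) and EPHX2 (r = 0.988). A correlation does not measure the size of a difference. GK3 ran from 6.49 to 9.16 CPM and TIP2-3 from 36.6 to 147 CPM, against 184 to 490 CPM for the NIA gene. GLDH ran from 16.5 to 23.2 CPM, against 35.4 to 329.6 CPM for the GLN1-1 gene.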

How the data were processed

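The values are raw counts of reads per gene that the authors deposited for 6 libraries, beside a Nitab4.5 identifier and, for many genes, a symbol. Per the labels' protocols, RNA was polyadenylated and libraries were made with a SMARTER mRNA kit. The submitters' processing notes name the aligner HISAT2. How reads were counted, whether strand was used, how multi-mapped reads were handled and which aligner version was run are points not given in the sources used here. Several genes share a symbol, and reads of near-identical copies may have been split between them, so values of single copies are uncertain, and the identifier is printed with each symbol. The identifiers did not match the gene table of the other tobacco assembly used here, so neither coordinates nor sequences are given.

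The groups were compared with edgeR 4.0.16 in R 4.3.3 (filterByExpr, TMM, glmQLFit and glmQLFTest), with Benjamini-Hochberg adjustment over all 38482 tested genes and a threshold of 0.05. Fold changes are low nitrogen over control. CPM are TMM-scaled. DESeq2 1.42.0, run on all genes with its own filtering, gave adjusted p-values for 37114 genes, and limma-voom (limma 3.58.1) was run on the edgeR set. edgeR placed 0 genes past the threshold (4527 at an unadjusted p under 0.05), limma-voom 0 (4472) and DESeq2 565 (4543). Log2 ratios of CPM used 0.5 added, with exact permutation tests over libraries. The procedure was tested on simulated counts with planted changes, drawn independently for each gene. Differences shared by many genes within a group, such as those in light-harvesting transcripts, were not simulated.

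Named genes were, in each step, the most abundant gene, the tested gene with the smallest edgeR p and any gene past the threshold with edgeR or DESeq2, and in each related list the tested gene with the smallest edgeR p. Other genes were named after their values were seen: the remaining copies of each step, GLN1, GS2, NR1 and ASN2 genes, RFNR2, AS2, GDHB and the root marker QPT. After the table was seen, 10 genes whose symbol field pointed to another protein were removed from the lists of related and marker genes. The members and lists were chosen with earlier results of these data known, and the ratios between steps the copy shares and the values with GLN1 genes added to the glutamine synthetase step were added after the counts were seen. One gene that the rule on closest patterns named is not reported here.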

Additional observations from a re-analysis of the deposited data

How the results depend on the processing

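Alternatives were RLE and upper-quartile factors, other filters on low counts, DESeq2, limma-voom, counts summed by first name, the replicate number as a block, the light-harvesting covariate, each library left out, and 2 libraries left out together. Over all genes, 0 passed with edgeR, 565 with DESeq2 and 7 with the covariate, and 0 to 11 with 1 library left out, the highest without control replicate 3. GLN1-1 Nitab4.5_0000777g0010 turned sign with 1 library left out (-0.12 to 0.57, and -0.089 without low nitrogen replicate 3) and when summed with its namesake (-1.91, which the more abundant copy sets), and GLT1 Nitab4.5_0000714g0080 ranged from -0.29 to 0.11. With 1 library left out, the copy ratio differed by -0.24 to 0.24 for GLT1 (-0.033 without low nitrogen replicate 1) and -0.024 to 0.18 for GLU1, and the NIA over GLT1 ratio by -0.39 to 0.097. With control replicate 3 and low nitrogen replicate 1 left out together, that ratio differed by 0.15; the cause was not tested. With the GLN1 genes added after the values were seen, the glutamine synthetase sum had a log2 ratio of -0.45 in place of -1.88, and with the most abundant GLN1 gene in place of GLN1-1 the ratios reversed to -0.73 (NIA over it) and 0.58 (it over GLT1). The median over the 9 genes ranged from -0.87 to -0.36.

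The libraries were mostly not closest to their own replicate number. Correlations of same-number deviations were -0.34, 0.13 and -0.26, and 2 of 6 libraries, those of replicate 2, were closest to their own number. These deviations are taken from means of 3 libraries, so they cannot exclude a batch shared by number. With the replicate block edgeR called 0 genes, and the main GLN1-1 gene had a log2 fold change of -1.95 (edgeR adjusted p = 0.624). Its copy ratio had an exact sign-flip p of 0.25, the smallest that test can give with these libraries. Genes with a few counts, such as GLN1-2, were limited by depth.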
